A study of Mus musculus with 4 samples.

Results

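The natriuretic peptide system was followed across 4 RNA-seq libraries of mouse hearts at postnatal day 0 (P0, the day of birth). Its 8 genes are the peptide genes Nppa, Nppb and Nppc, the processing proteases Corin and Furin, and the receptors Npr1, Npr2 and Npr3. They were taken by name from the 43346 gene identifiers of each library, and 7 of the 8 had enough reads for a test among 16009 tested genes; Nppc did not. The tested genotype was the MRTFA/B double knockout (DKO, strain background labelled Mixed, 2 libraries), labelled as a knockout of both MRTFA and MRTFB, proteins of the myocardin family through which serum response factor (SRF) activates muscle and cytoskeletal genes. It was set against wild type hearts (WT, strain background ICR, 2 libraries). Genotype and strain background therefore cannot be told apart. The labels name neither the alleles nor any Cre line, nor the cells in which each gene was deleted, nor do they state if libraries of 1 group were from different animals, so the p-values reflect library-to-library spread that may be technical only.

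Natriuretic peptides are hormones that heart muscle makes when it is stretched. Nppa encodes atrial natriuretic peptide (ANP), which is made in the ventricles of the fetus and becomes largely atrial after birth. Nppb encodes brain natriuretic peptide (BNP), the peptide whose transcript responds quickly to wall stress. Both are made as precursors, which are cut by the membrane protease corin and by furin, a protease of the secretory pathway. The peptides act through Npr1, which produces cyclic GMP (cGMP), and are cleared from the circulation by Npr3, while Npr2 is the cGMP-producing receptor for C-type natriuretic peptide, the product of Nppc.

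The 2 heart peptide genes lie next to each other on chromosome 4 in the same orientation, Nppb at 147985788 to 147987205 and Nppa at 148000722 to 148002079 (mm10). Their promoters are shown because both respond to cardiac transcription factors and because the genes differed so much across the 4 libraries. The sequences are the 250 bases before the RefSeq start on the plus strand of GRCm38.p6, chr4:148000472-148000721 for Nppa and chr4:147985650-147985899 for Nppb. The GENCODE start of Nppb lies inside that window. Capitals mark matches, on either strand, to the GATA factor motif AGATAA or its variant TGATAA, to the NKX2-5 motif AAGTG, to the T-box motif TCACACC, to the MCAT element GGAATG of TEAD factors, and to the CArG box of SRF with at most 1 mismatch.
Nppa: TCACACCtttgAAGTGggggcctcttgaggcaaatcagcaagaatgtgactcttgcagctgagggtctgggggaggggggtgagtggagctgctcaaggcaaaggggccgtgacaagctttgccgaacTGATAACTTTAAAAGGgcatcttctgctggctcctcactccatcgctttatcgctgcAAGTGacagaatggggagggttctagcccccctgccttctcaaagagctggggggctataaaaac
Nppb: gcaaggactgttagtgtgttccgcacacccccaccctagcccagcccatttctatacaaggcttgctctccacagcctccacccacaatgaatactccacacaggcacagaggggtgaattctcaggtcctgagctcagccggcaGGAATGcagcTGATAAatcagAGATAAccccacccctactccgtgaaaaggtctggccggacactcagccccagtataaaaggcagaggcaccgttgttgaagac

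The Nppa window held a T-box match 250 to 244 bases before the start, AAGTG at 239 to 235 and at 65 to 61, and TGATAA at 122 to 117. Directly beside that GATA match, at 116 to 107, lay CTTTAAAAGG, which differs from the CArG box at 1 base. The Nppb window held GGAATG at 105 to 100, TGATAA at 95 to 90 and AGATAA at 84 to 79, with no CArG match at 1 mismatch or fewer. Neither window held an exact CArG box. Of 32851 windows of the same length before RefSeq starts, 3.33% held the T-box motif, 12.6% the MCAT motif, 16.6% the GATA motif, 40.7% AAGTG, 1.47% an exact CArG box and 17.5% one with exactly 1 mismatch. The matches describe letters in these windows and show no binding.

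Depth ran from 16175259 to 29460641 counts per library. Levels are CPM, reads scaled to the depth of the library, after TMM adjustment, and 3 counts in 1 library correspond to between 0.106 and 0.184 CPM. The heart label fitted the marker genes: all 10 cardiomyocyte markers were tested, with summed levels of 51432 and 46873 CPM in the DKO libraries and 66691 and 61284 CPM in the WT libraries, while thymus, lung and liver markers summed to between 0.705 and 2.19 CPM per library. Mrtfa was at 3.35 and 2.26 CPM in DKO, against 9.06 and 11.1 CPM in WT. Its log2 fold change was -1.82 (SE 0.26, edgeR adjusted p = 0.12, DESeq2 adjusted p = 1.25e-05). Mrtfb was at 46.0 and 49.6 CPM in DKO, against 46.9 and 56.8 CPM in WT. Its log2 fold change was -0.12 (SE 0.13, edgeR adjusted p = 0.69, DESeq2 adjusted p = 0.86). A count over the whole gene does not check a deletion of some exons, so the loss of MRTFB rests on the label. The SRF gene was at 71.9 and 79.4 CPM in DKO, against 111 and 85.6 CPM in WT, and the coactivator Myocd at 133 and 188 CPM in DKO, against 140.3 and 159.7 CPM in WT.

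Genes were tested with the quasi-likelihood test of edgeR, with Benjamini-Hochberg adjustment over all 16009 tested genes and a threshold of 0.05. It called 0 of the 7 tested natriuretic genes, beside 0.075% of all tested genes, while 3 of the 7 had an unadjusted p under 0.05, beside 17.3% of all tested genes. DESeq2, run as an alternative on the same genes, called 1 of them, Nppa, beside 3.32% of all tested genes (1.76% called higher and 1.57% called lower in DKO). Both DKO libraries lay above both WT libraries for 5 of the 7, Nppa, Corin, Npr1, Npr2 and Npr3, beside 25.8% of all tested genes, and below them for 0, beside 25.2%. All 7 fold changes were positive, beside 51.3% of all tested genes, and their median was 0.45, beside 0.01 over all tested genes. The count and the median leave out Nppc, whose levels were lower in both DKO libraries.

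**Figure D1:**
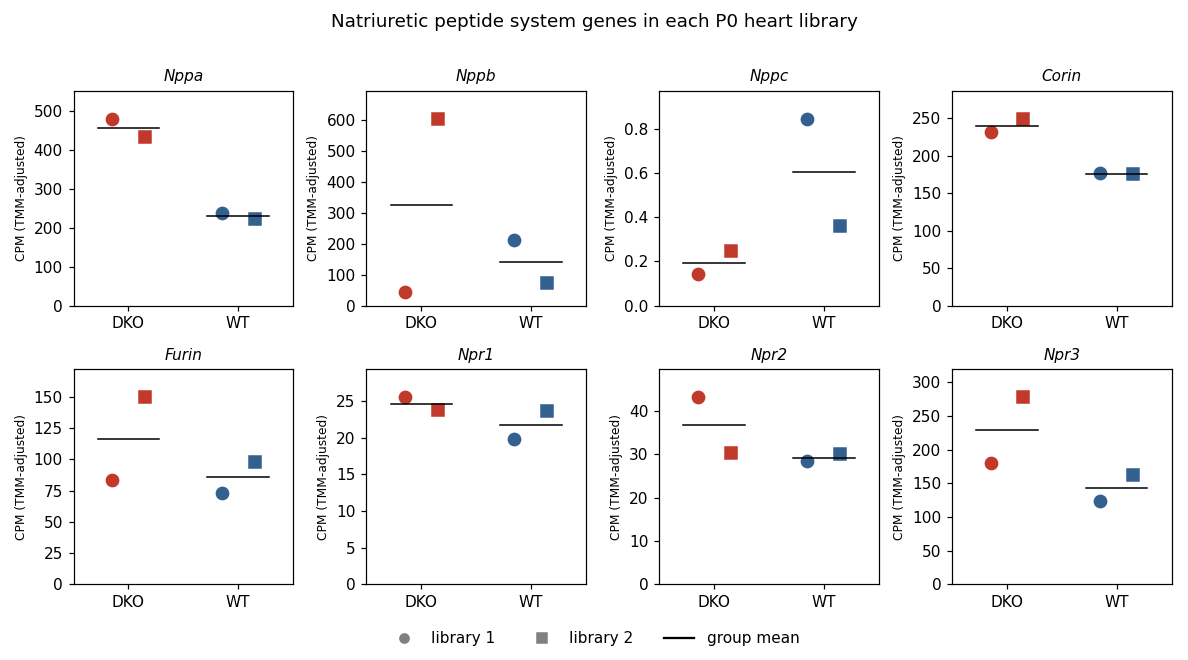
Levels of the 8 natriuretic peptide system genes in CPM (vertical axis, linear from 0, a different range in each panel), with DKO libraries on the left and WT libraries on the right of each panel. Circles are library 1 and squares library 2 of a group, and lines are group means. Nppa separates the genotypes with little spread within them, at 480.3 and 432 CPM against 237 and 221 CPM, whereas the DKO points of Nppb, at 45.3 and 603 CPM, lie on either side of both WT points.

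Nppa transcripts stood at about double the WT level in both DKO libraries, with little spread inside either pair. Nppa (ENSMUSG00000041616) was at 480.3 and 432 CPM in the DKO libraries, against 237 and 221 CPM in the WT libraries. The groups did not overlap, and the gap between them exceeded the gap within either pair. The means were 456 ± 34.1 CPM in DKO and 229 ± 11.0 CPM in WT (SD, n = 2 each), a ratio of 1.99. The log2 fold change was 0.99 (SE 0.12, 95% interval 0.71 to 1.28), with an edgeR adjusted p of 0.0957 and an unadjusted p of 1.55e-04. The DESeq2 adjusted p was 1.54e-07. With 1 library left out the log2 fold change lay between 0.91 and 1.07, so its size did not rest on 1 library. The edgeR adjusted p was 1.65e-04 without DKO library 1 and 1.23e-04 without DKO library 2, settings in which 17.1% and 8.24% of all tested genes were called. It was 0.864 without WT library 1 and 0.509 without WT library 2, settings in which 0.0121% and 0.018% were called. Each of these fits takes its spread from the pair that is left whole and assumes that the lone library varies alike, so they set Nppa against the spread of the WT pair when a DKO library is out and against that of the DKO pair when a WT library is out.

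Nppa is also a marker of atrial muscle, and other atrial genes were higher beside it. In a list of 12 atrial markers without the peptides, all 12 were tested, 10 had a positive fold change and the median was 0.69, which was 0.26 without WT library 1 and 1.16 without WT library 2. The list summed to 1378 and 1131 CPM in DKO, against 600.03 and 1033 CPM in WT, and none of its genes was at 0. EdgeR called 0 of them and DESeq2 called 3 higher: Bmp10, a growth factor of atrial and trabecular muscle, at 21.4 and 40.4 CPM in DKO, against 8.85 and 8.20 CPM in WT; the potassium channel Kcnj3, at 86.0 and 87.4 CPM in DKO, against 22.2 and 44.1 CPM in WT; and the lipid transfer protein Stard10, at 26.0 and 21.0 CPM in DKO, against 8.07 and 14.4 CPM in WT. Inside the WT pair, 10 of the 12 markers were lower in library 1 than in library 2, beside 50.5% of all tested genes, while Bmp10, Kcna5 and Nppa were higher in library 1. In bulk hearts a larger share of atrial muscle and more RNA per cell cannot be told apart, and the part of atrial tissue in the Nppa difference was not tested. Trabecular and conduction markers, from the inner ventricular muscle that also makes Nppa before birth, had a median fold change of 0.44 over 10 genes with 0 called by edgeR or DESeq2. Their sums were 454 and 339 CPM in DKO and 329.5 and 421 CPM in WT, ranges that overlap, and leaving out a library put the median anywhere from 0.04 to 0.69.

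Nppb behaved differently from its neighbour: its spread within each genotype was larger than the difference between the genotypes on the log2 scale. Nppb (ENSMUSG00000029019) was at 45.3 and 603 CPM in the DKO libraries, against 212 and 71.6 CPM in the WT libraries. The DKO libraries held both the lowest and the highest of the 4 values, and both WT values lay between them. DKO library 2 stood 13.3-fold above DKO library 1, and WT library 1 stood 2.96-fold above WT library 2. The means were 324 ± 394 CPM in DKO and 142 ± 99.1 CPM in WT (SD, n = 2 each), and the log2 fold change of 1.19 had an SE of 1.32 and a 95% interval of -2.45 to 4.83 (edgeR adjusted p = 0.695; DESeq2 adjusted p = 0.823). Without DKO library 2 the sign turned, to -1.65. These 4 libraries leave both a severalfold lower and a severalfold higher Nppb level inside the interval.

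The size of this spread was unusual among the genes measured. On the log2 scale the DKO libraries differed by 3.73 and the WT libraries by 1.56 for Nppb, beside medians of 0.24 and 0.15 over all tested genes. Its difference within the DKO pair ranked 19th of 16009 genes and that within the WT pair ranked 63rd. Of the 16009 genes, 1 had differences at least as large as these in both pairs, Nppb itself. This comparison was chosen after the Nppb values were seen, and describes 4 libraries. The Nppa differences, 0.15 in the DKO pair and 0.10 in the WT pair, were below the medians of all genes.

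**Figure D2:**
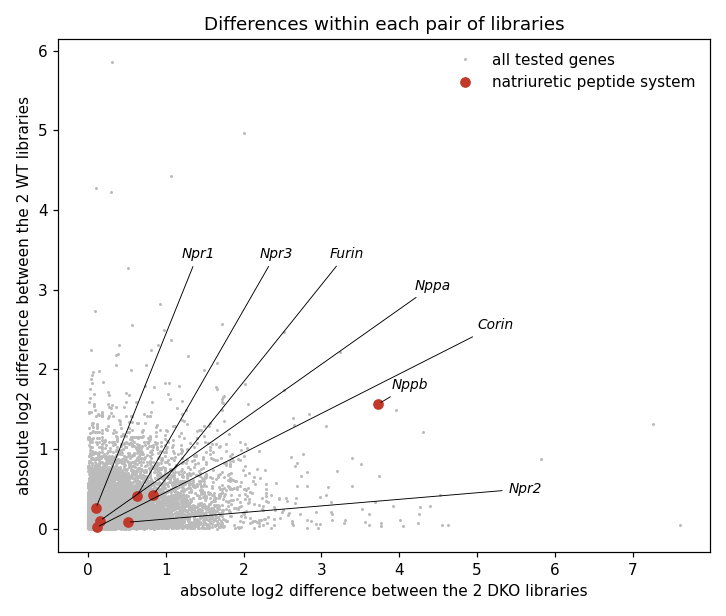
Absolute log2 difference between the 2 DKO libraries (horizontal axis) and between the 2 WT libraries (vertical axis), for each of the 16009 tested genes in grey and the 7 tested natriuretic genes in red. Nppb lies at 3.73 and 1.56, apart from the bulk of the genes, while the other 6 lie at 0.84 or less on the horizontal axis.

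The balance of the 2 peptide transcripts therefore changed from library to library. Per kilobase of annotated exon, Nppa was at 555 and 499.5 CPM per kb in DKO, against 274 and 256 CPM per kb in WT, and Nppb at 58.0 and 772 CPM per kb in DKO, against 271 and 91.6 CPM per kb in WT. Nppb made up 9.46% and 60.7% of their summed level per kb in DKO, against 49.8% and 26.4% in WT. Nppa was the more abundant in DKO library 1 and WT library 2, Nppb was the more abundant in DKO library 2, and in WT library 1 the levels were nearly equal, with an Nppb to Nppa ratio of 0.99.

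The genes most like each peptide gene across the libraries were listed as a description. Likeness was measured as the Euclidean distance between log2 CPM values centred on each gene's mean, over the 4 libraries and 10413 named genes with a mean of at least 5 CPM. Closest to Nppa were Ide, the insulin-degrading enzyme (distance 0.11), Thbs4, a matrix thrombospondin (0.16), and Serpinb6b, a serine protease inhibitor (0.16). Closest to Nppb were Thbs1, another thrombospondin (1.19), Ccn2, connective tissue growth factor (1.19), and Abra, an actin-binding protein of striated muscle (1.39). Nppb varied far more across the libraries than Nppa, so distances to it run larger. Ccn2 was at 59.5 and 427 CPM in DKO, against 97.1 and 35.9 CPM in WT. Thbs1 was at 41.8 and 223 CPM in DKO, against 75.7 and 51.0 CPM in WT. Abra was at 12.4 and 53.6 CPM in DKO, against 22.4 and 16.4 CPM in WT. Thbs1 and Abra had the order of Nppb over the 4 libraries, with DKO library 2 the highest, then WT library 1, then WT library 2, and DKO library 1 the lowest. Ccn2 had the same order at the top, but its lowest value was in WT library 2. These genes were picked for likeness to Nppb over the same 4 libraries, so the shared order follows from the choice.

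**Figure D3:**
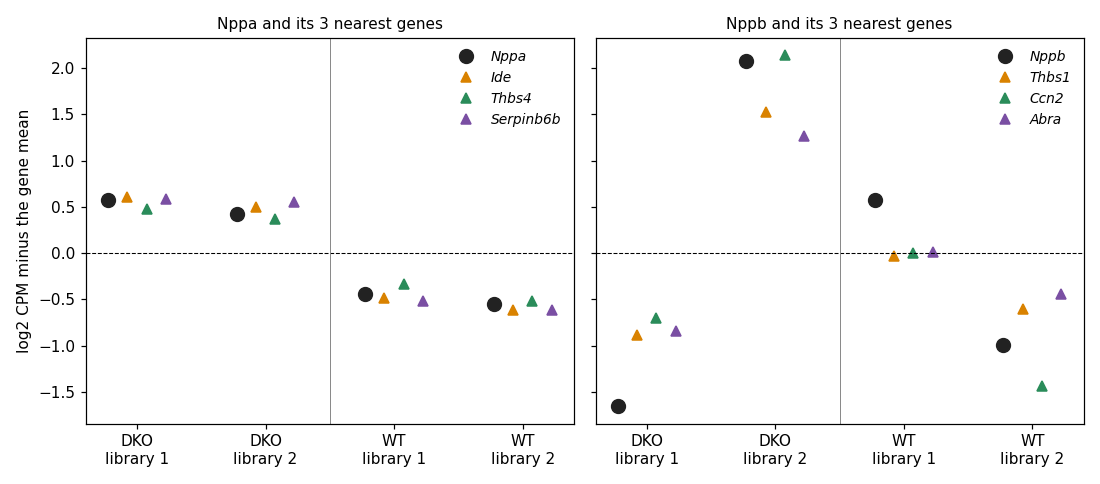
Log2 CPM minus each gene's mean (vertical axis) in the DKO libraries, left of the grey line, and the WT libraries, right of it, for Nppa (left panel) and Nppb (right panel) as black circles with their 3 nearest genes as triangles. The Nppa panel shows 2 levels, 1 per genotype, whereas in the Nppb panel DKO library 2 is the highest and both groups spread across 0. The nearest genes were picked from these same values.

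In a list of 13 genes that respond to load or hypertrophy, 12 were tested and their median fold change was 0.25, but it was 0.74 without DKO library 1 and -0.22 without DKO library 2. It was 0.475 without WT library 1 and 0.04 without WT library 2. The list summed to 6564 and 12673 CPM in DKO, against 9136 and 5465 CPM in WT. Ankrd1, a muscle stress protein of the sarcomere and nucleus, was at 977 and 3222 CPM in DKO, against 2709 and 874 CPM in WT. It was highest in DKO library 2 and WT library 1, as was Nppb. DESeq2 called 1 of the list lower, the skeletal actin gene Acta1, at 3.35 and 6.85 CPM in DKO, against 149 and 63.5 CPM in WT. Acta1 thus differed between the genotypes in the opposite direction to Nppa, and edgeR called neither.

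Nppc, which encodes the C-type peptide of endothelial and cartilage cells, was close to the limit of detection in these hearts. It had 4 and 4 reads in the DKO libraries, against 24 and 9 reads in the WT libraries. In CPM these were 0.141 (exact 95% Poisson interval 0.0384 to 0.361) and 0.245 (0.0667 to 0.627) in DKO, against 0.846 (0.542 to 1.26) and 0.362 (0.165 to 0.687) in WT. The intervals cover counting error only. Both DKO values lay below both WT values, but the interval of WT library 2 overlapped those of both DKO libraries. That of WT library 1 overlapped the interval of DKO library 2. In a fit with no filter on low counts, the log2 fold change was -1.74 (SE 0.65; edgeR adjusted p = 0.0955).

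Of the processing proteases, Corin was higher in both DKO libraries while Furin varied within the groups. Corin (ENSMUSG00000005220, chromosome 5, 72300025 to 72504473), which cuts the ANP precursor on the surface of cardiomyocytes, was at 231 and 249.7 CPM in DKO, against 177 and 175 CPM in WT. The groups did not overlap, and each pair agreed closely. The means were 240.5 ± 13.0 CPM in DKO and 176 ± 1.35 CPM in WT (SD, n = 2 each), a log2 fold change of 0.45 (SE 0.11, 95% interval 0.19 to 0.71; edgeR adjusted p = 0.159; DESeq2 adjusted p = 0.0640). With 1 library left out the log2 fold change lay between 0.39 (without DKO library 2) and 0.50 (without DKO library 1). Summed cardiomyocyte markers moved the other way, as given above, and 9 of the 10 markers had fold changes below 0 (median -0.22). DESeq2 called 1 of them, the cardiac actin gene Actc1, lower. Actc1 was at 6688 and 6282 CPM in DKO, against 17537 and 12642 CPM in WT, and made up much of the drop in the sum. The part of cardiomyocyte content in the Corin difference was not tested.

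Furin (ENSMUSG00000030530, chromosome 7, 80388585 to 80405436), a protease made by nearly all cells, was at 83.6 and 149 CPM in DKO, against 73.0 and 98.1 CPM in WT. The groups overlapped. The log2 fold change was 0.44 (SE 0.32, 95% interval -0.38 to 1.26; edgeR adjusted p = 0.526). It was -0.03 without DKO library 2 and 0.80 without DKO library 1, so its size rested on DKO library 2. Per kb, Corin exceeded Furin in every library, by 4.70-fold and 2.84-fold in DKO and by 4.13-fold and 3.04-fold in WT.

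The gene beside Corin also differed between the genotypes. Atp10d, a phospholipid-transporting ATPase whose gene is annotated as a polymorphic pseudogene, lies 1249 bases from Corin on the opposite strand. It was at 40.2 and 29.7 CPM in DKO, against 13.1 and 12.0 CPM in WT (log2 fold change 1.48, SE 0.18; edgeR adjusted p = 0.0957; DESeq2 adjusted p = 3.06e-07). It was the 1 gene that DESeq2 called among 13 nearest tested neighbours, within 100 kb on either side of the 8 genes, and edgeR called 0. Clcn6, a chloride transporter that lies 2179 bases beyond Nppa, was at 24.8 and 33.9 CPM in DKO, against 27.0 and 22.2 CPM in WT, and its groups overlapped. Of 10 annotated genes that overlap a natriuretic gene, 8 had a row in the files and none of these had more than 9 reads in a library. Without a stated strand setting, reads of a gene and of its antisense partner, such as Nppa and Gm13054, cannot be told apart.

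Of the receptors, the clearance receptor Npr3 had the largest fold change with all 4 libraries, but the order turned without DKO library 2, where Npr2 had the larger one (0.56, beside 0.33 for Npr3). Npr3 (ENSMUSG00000022206, chromosome 15, 11839896 to 11907287), which in the heart marks the endocardium, was at 180 and 277 CPM in DKO, against 123 and 163 CPM in WT. The groups did not overlap, but the lower DKO value lay close to the higher WT value. The means were 229 ± 69.1 CPM in DKO and 143 ± 28.2 CPM in WT (SD, n = 2 each), a log2 fold change of 0.68 (SE 0.25, 95% interval 0.05 to 1.30; edgeR adjusted p = 0.264; DESeq2 adjusted p = 0.132). With 1 library left out the log2 fold change lay between 0.33 (without DKO library 2) and 0.96 (without DKO library 1). Endocardial markers other than Npr3 summed to 657 and 647 CPM in DKO, against 538 and 578 CPM in WT. Of the 10, 8 had a positive fold change, with a median of 0.20 (0.13 without DKO library 1 and 0.11 without WT library 1), none was at 0, and DESeq2 called 1, the matrix link protein Hapln1, lower. The part of endocardial cell number in the Npr3 difference was not tested.

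Npr1 (ENSMUSG00000027931, chromosome 3, 90450591 to 90465866), the receptor for ANP and BNP, was at 25.5 and 23.7 CPM in DKO, against 19.8 and 23.6 CPM in WT. The lower DKO value and the higher WT value were almost equal. The log2 fold change was 0.18 (SE 0.15, 95% interval -0.18 to 0.54; edgeR adjusted p = 0.562), and the interval reaches neither a doubling nor a halving. Npr2 (ENSMUSG00000028469, chromosome 4, 43631935 to 43651244), the receptor for the C-type peptide, was at 43.0 and 30.2 CPM in DKO, against 28.3 and 29.9 CPM in WT. DKO library 1 stood apart, and DKO library 2 was level with both WT libraries. The log2 fold change was 0.33 (SE 0.19, 95% interval -0.13 to 0.79; edgeR adjusted p = 0.413), and it was 0.05 without DKO library 1 and 0.56 without DKO library 2.

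**Figure D4:**
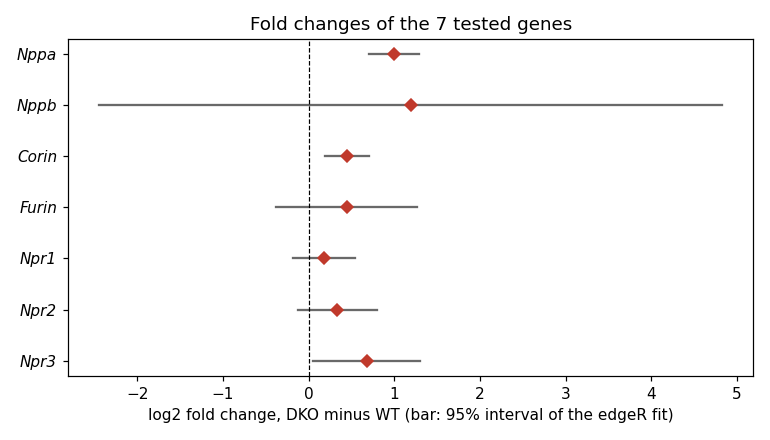
Log2 fold change of each of the 7 tested natriuretic genes, DKO minus WT (horizontal axis), as diamonds with 95% intervals of the edgeR fit as bars. The intervals of Nppa, Corin and Npr3 lie above 0 before adjustment over all genes, and that of Nppb runs from -2.45 to 4.83.

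Set side by side per kb, the peptide genes Nppa and Nppb lay above the other 6 in every library, though in DKO library 1 Nppb, at 58.0 CPM per kb, was not far above Corin, at 42.8 CPM per kb. Averaged over the 4 libraries, Nppa ranked 48th and Nppb 73rd of 15922 tested genes with a length, followed by Corin at 913, Npr3 at 2079, Furin at 3888, Npr2 at 5733 and Npr1 at 7277. The ranges of Nppa and Nppb overlapped, so their order is not fixed by these libraries. Corin, at 42.8 and 46.2 CPM per kb in DKO and 32.8 and 32.5 CPM per kb in WT, lay above Npr3 in every library. Npr3 was at 19.1 and 29.5 CPM per kb in DKO and 13.1 and 17.4 CPM per kb in WT, and its range overlapped that of Furin, at 9.11 and 16.3 CPM per kb in DKO and 7.95 and 10.7 CPM per kb in WT. Npr2, at 9.22 and 6.48 CPM per kb in DKO and 6.07 and 6.41 CPM per kb in WT, overlapped Furin but lay above Npr1, at 5.32 and 4.96 CPM per kb in DKO and 4.13 and 4.94 CPM per kb in WT. Lengths are the union of all annotated exons, which understates the level per kb of genes with many alternative exons.

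The clearance receptor was the most abundant of the 3 receptor transcripts in every library. Npr3 made up 56.8% and 72.1% of the summed receptor level per kb in DKO, against 56.2% and 60.5% in WT. The ratio of Npr3 to Npr1 was 3.60 and 5.95 in DKO, against 3.17 and 3.51 in WT. DKO library 2, the library with the most Nppb, had the highest Npr3 share, while the other 3 libraries lay close together. WT library 1 had more Nppb than DKO library 1 and WT library 2, yet the lowest Npr3 share. The order of the Npr3 share was therefore not that of Nppb.

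Genes around the system were counted from lists. Of 14 genes that process or clear the peptides besides the members, 9 were tested, with a median fold change of 0.06, which lay between -0.07 (without DKO library 1) and 0.14 (without WT library 2) with 1 library left out. EdgeR called 0 and DESeq2 called 1, Ide, beside the background shares above. Ide, a protease that can degrade ANP, was at 640 and 593 CPM in DKO, against 300.3 and 275 CPM in WT (log2 fold change 1.10, SE 0.12; edgeR adjusted p = 0.0957; DESeq2 adjusted p = 8.72e-10). Mme, neprilysin, the main peptidase that degrades the peptides in tissue, was at 8.29 and 13.4 CPM in DKO, against 5.39 and 8.64 CPM in WT, and its groups overlapped. Pcsk6, which activates corin, was at 12.2 and 13.0 CPM in DKO, against 13.1 and 11.5 CPM in WT. Ostn, osteocrin, a further ligand of Npr3, had no reads in these 4 libraries, which allows up to 0.184 CPM in the shallowest of them.

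Of 19 genes of cGMP signalling, 17 were tested, 7 with a positive and 10 with a negative fold change, and the median was -0.01, or between -0.07 and 0.08 with 1 library left out. EdgeR and DESeq2 called 0 of them, and 3 had an unadjusted edgeR p under 0.05, beside 17.3% of all tested genes. These were Nos1 (log2 fold change 1.40, with 8 to 32 reads per library), Pde9a (0.51) and Vasp (-0.48). Their edgeR adjusted p was 0.236, 0.225 and 0.163. The list was not split into genes that make and genes that break down cGMP, so its median gives no net direction. Pln, phospholamban, a target of cGMP-dependent kinase that restrains the calcium pump, was at 5980 and 5517 CPM in DKO, against 5172 and 5251 CPM in WT. Pde1c, a phosphodiesterase that breaks down cyclic nucleotides, was at 198 and 153 CPM in DKO, against 165 and 188 CPM in WT. The kinase gene itself, Prkg1, was at 33.2 and 41.0 CPM in DKO, against 29.1 and 35.1 CPM in WT, and its groups overlapped.

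Of 22 regulators of natriuretic peptide transcription, all were tested, 11 positive and 11 negative, with a median of 0.03, or between -0.03 and 0.115 with 1 library left out. The list was not split into activators and repressors, so its sign count and median give no net direction of input. EdgeR and DESeq2 called 0 of them, and 1 had an unadjusted edgeR p under 0.05. Mef2a, a muscle transcription factor, was at 979 and 804 CPM in DKO, against 774 and 791 CPM in WT, and Tbx20, a T-box factor of heart muscle, at 708 and 728 CPM in DKO, against 733 and 848 CPM in WT. Gata4, whose binding motif occurs in both promoters above, was at 185 and 149 CPM in DKO, against 207 and 204 CPM in WT. Its relative Gata6 was at 223 and 310.2 CPM in DKO, against 193 and 207 CPM in WT. Tbx5, which acts on Nppa with NKX2-5, was at 38.5 and 40.0 CPM in DKO, against 21.6 and 38.4 CPM in WT, and the TEAD family gene Tead1 at 313 and 325 CPM in DKO, against 368 and 326 CPM in WT.

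Of 8 genes of secretory granule cargo and membranes, 5 were tested, with a median fold change of 0.48, or 0.16 without DKO library 2, and DESeq2 called 1 and edgeR 0. That gene was Pam, a peptide-amidating enzyme that is abundant in the membranes of atrial ANP granules. Pam was at 3438 and 3184 CPM in DKO, against 1904 and 2328 CPM in WT (log2 fold change 0.65, SE 0.15; edgeR adjusted p = 0.156; DESeq2 adjusted p = 0.00957). As with Nppa, both DKO libraries were above both WT libraries. The list median was the value of Chgb, with 22 and 22 reads in DKO and 20 and 19 reads in WT. Scg3 and Scg5 had between 5 and 29 reads per library, so the median rests on genes with few reads. The neuroendocrine granule proteins Chga and Vgf were near or at 0 reads, with Chga at 0 and 0.245 CPM in DKO, against 0 and 0.0804 CPM in WT.

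The remaining marker lists had median fold changes of -0.35 for smooth muscle and pericytes, -0.16 for vascular endothelium, -0.01 for fibroblasts, 0.00 for ventricular muscle, 0.23 for epicardium, 0.27 for macrophages and leukocytes, -0.09 for red cells and -0.07 for nerve and Schwann cells. Leaving out 1 library turned the sign of 4 of these medians: red cells lay between -0.47 (without DKO library 2) and 0.16 (without DKO library 1), nerve and Schwann cells between -0.45 (without DKO library 1) and 0.20 (without DKO library 2), ventricular muscle between -0.24 (without DKO library 1) and 0.16 (without DKO library 2), and fibroblasts between -0.15 (without WT library 1) and 0.13 (without DKO library 1). The macrophage median was 0.43 without DKO library 2, that of the epicardium 0.15 without DKO library 1 and 0.14 without WT library 1, and that of vascular endothelium -0.10 without DKO library 2. EdgeR called 0 genes in these lists, and DESeq2 called 1 lower among ventricular markers, 1 higher among epicardial markers, 1 higher among macrophage markers and 1 lower among red cell markers. Smooth muscle and pericyte markers summed to 1678 and 1518 CPM in DKO, against 4234 and 2808 CPM in WT, with 11 of 11 fold changes negative. DESeq2 called 3 of them lower, Acta2, Cnn1 and Smtn. Much of the gap between the sums lay in the smooth muscle actin gene Acta2, at 535 and 439 CPM in DKO, against 2962 and 1468 CPM in WT. The part of smooth muscle and pericyte cell number in these differences was not tested.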

How the data were processed

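RNA of P0 hearts was sequenced in 2 DKO and 2 WT libraries, grouped by title. The authors deposited raw HTSeq counts for each gene on mm10, per the submitters' processing notes, which also name DESeq 1.10.1. The aligner, annotation release, strand setting and handling of multi-mapping reads were not given in the sources used here. GENCODE M21 (mm10) matched 42462 of 43346 identifiers, and no row lacked a gene. RefSeq promoter windows matched all 8 genes.

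All 4 libraries entered 1 fit in edgeR 4.0.16 (R 4.3.3) with filterByExpr defaults, TMM factors, robust quasi-likelihood estimation and no covariate. SEs are the fold change divided by the root of the F statistic. All genes outside the filter were scaled by the same factors. Alternatives covered scaling, filters (none, or CPM above 1 in all libraries of a group averaging at least 50 counts), DESeq2 1.42.0, limma-voom (limma 3.58.1), no robust estimation, a replicate block and each library left out. The fits were also run on simulated counts with the same spread in every gene and in both groups. That setting differs from these libraries, so it does not show how the fits perform on them.

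The 8 genes and the 18 further lists were chosen with earlier results of these data known. Named genes were the 8 members, the targeted genes, Srf and Myocd, the 3 genes nearest to Nppa and Nppb, neighbours, and per list up to 3 genes past a threshold or else the 2 most abundant. Further genes (Mme, Pcsk6, Ostn, Prkg1, Nos1, Pde9a, Vasp, Gata4, Gata6, Tbx5, Tead1, Kcna5, Ankrd1, Chga, Chgb, Scg3, Scg5, Vgf) were chosen after their values were seen.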

Additional observations from a re-analysis of the deposited data

How the results depend on the processing

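With 14 alternatives, the fold changes of Nppa, Corin, Npr1, Npr2 and Npr3 kept their positive sign, and those of Nppb and Furin turned negative in 1 each, without DKO replicate 2 (log2 fold change -1.65 for Nppb and -0.0335 for Furin, which was 0.803 without DKO replicate 1). The log2 fold change of Nppa passed the threshold with no filter (0.978), in DESeq2 (0.991) and without either DKO library; with 1 library left out it lay between 0.914 and 1.07, and that of Nppb between -1.65 and 2.17. Over the alternatives the adjusted p of Nppa ranged from 5.21e-10 to 0.864 and that of Nppb from 0.503 to 0.971. The number of natriuretic genes called, 0 in the main fit, was 3 with no filter, beside 6.07% of 24928 genes, and 1 in DESeq2, and it lay between 0 and 4 with 1 library left out. It was 4 without DKO replicate 1, beside 17.1% of genes, and 2 without DKO replicate 2, beside 8.24%. Over all genes 12 were called, against 1514 with no filter, 532 in DESeq2, 2 with a replicate block and 3 with a crossed block (added after seeing the data), and between 2 and 2795 with 1 library left out. The cause of these changes was not tested. Calls were higher in 16.7% of the 12 edgeR genes and 52.8% of the 532 DESeq2 genes.

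The numbers pair no samples in the labels: deviations of same-numbered libraries correlated at -0.10 across genes, which are not independent. With the replicate block the log2 fold change of Nppa was 0.99 and that of Nppb 0.43, and with the crossed block 0.99 and 0.44; the adjusted p of Nppa was 0.0980 and 0.171. Depth limits Nppc, with 4 to 24 reads per library, and 2 libraries per group limit the intervals of all 8 genes.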
